A study of Mus musculus with 2 samples.

Results

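The genes described here are Nanog, Esrrb, Tbx3, Tfcp2l1, Zfp42, Prdm14 and Nr0b1, 7 regulators of naive pluripotency that mouse embryonic stem cells grown in serum carry unevenly from cell to cell. They were chosen by name, and all 7 were found among the 32285 genes of the files. The cells were C3H/HeSn-Paf/J mouse embryonic stem cells, a mixture of 9 lines, 3 derived independently from embryos of each of the chromosomal sexes XX, XO and XY. They grew on irradiated feeder cells and gelatin in medium with serum and leukemia inhibitory factor (LIF). There was 1 library of an early passage (time 1) and 1 taken 10 passages later (time 2), by droplet single-cell RNA sequencing that counts unique molecular identifiers (UMIs). Both libraries share the strain, the pool of lines and the medium. Cells cannot be assigned to a line here, so each time is 1 sample, with no replicate and no test. Intervals cover counting error only.

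Naive pluripotency is the state of the inner cell mass before implantation, and it is held in culture by a network of transcription factors in which LIF acts through Stat3. Nanog, Esrrb, Tbx3, Tfcp2l1 and Zfp42 (Rex1) lie downstream of Oct4 and Sox2 or of LIF in that network, and their levels drop when cells move towards the primed state of the implanted epiblast. In serum the network is known to switch between high and low states, so that a gene can be abundant in one cell and absent from its neighbour. Fewer cells with a transcript and less transcript per cell cannot be told apart in summed values. Shares of cells are given beside the levels, but at low counts they rise with the level and do not separate these cases.

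On the mouse assembly GRCm38, all 7 are annotated as protein-coding genes. Nanog, a homeodomain factor, lies on chromosome 6 from 122707489 to 122714633 on the plus strand. Esrrb, an orphan nuclear receptor, lies on chromosome 12 from 86361117 to 86521628 (plus). Tbx3, a T-box factor, lies on chromosome 5 from 119670669 to 119684724 (plus). Chromosome 1 carries both Tfcp2l1, a CP2-family factor, from 118627945 to 118685168 (plus), and Prdm14, a PR-domain factor also needed in germ cells, from 13113457 to 13127163 (minus). Zfp42, a zinc-finger gene used as a marker of the naive state, lies on chromosome 8 from 43295063 to 43306980 (minus). Nr0b1 (Dax1), a nuclear receptor-like co-repressor, lies on the X chromosome from 86191764 to 86195947 (plus).

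RefSeq promoter entries on GRCm38.p6 matched 5 of the 7 genes (7 entries), and 4 are printed because these genes either stayed within 1.5-fold with passage (Nanog) or came to at least 2-fold higher levels together (Zfp42, Tfcp2l1, Nr0b1). Each is the 250 bases before the start, 5′ to 3′ on the gene's strand, at chr6:122707239-122707488 (plus), chr8:43307010-43307259 (minus), chr1:118627695-118627944 (plus) and chrX:86191525-86191774 (plus). Capitals mark matches to any of 5 motifs on either strand, none of which overlap: the octamer core TTTGCAT of Oct4, the Sox core ACAATG, the nuclear receptor half-site AAGGTCA, the Klf core CCACCC and the Stat site TTCNNNGAA.
Nanog: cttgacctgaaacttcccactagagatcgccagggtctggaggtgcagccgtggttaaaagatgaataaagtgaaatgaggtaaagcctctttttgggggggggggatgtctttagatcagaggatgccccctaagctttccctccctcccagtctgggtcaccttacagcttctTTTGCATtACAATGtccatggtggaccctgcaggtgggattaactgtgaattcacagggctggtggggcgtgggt
Zfp42: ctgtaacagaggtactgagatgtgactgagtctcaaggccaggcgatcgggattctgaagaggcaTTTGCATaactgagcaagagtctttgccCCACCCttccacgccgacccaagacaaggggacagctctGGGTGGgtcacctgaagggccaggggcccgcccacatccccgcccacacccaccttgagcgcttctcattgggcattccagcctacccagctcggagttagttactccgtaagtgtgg
Tfcp2l1: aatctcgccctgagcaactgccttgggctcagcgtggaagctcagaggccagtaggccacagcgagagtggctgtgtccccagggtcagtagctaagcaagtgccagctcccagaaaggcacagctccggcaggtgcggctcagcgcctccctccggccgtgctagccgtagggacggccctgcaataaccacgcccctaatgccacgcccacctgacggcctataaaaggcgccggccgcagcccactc
Nr0b1: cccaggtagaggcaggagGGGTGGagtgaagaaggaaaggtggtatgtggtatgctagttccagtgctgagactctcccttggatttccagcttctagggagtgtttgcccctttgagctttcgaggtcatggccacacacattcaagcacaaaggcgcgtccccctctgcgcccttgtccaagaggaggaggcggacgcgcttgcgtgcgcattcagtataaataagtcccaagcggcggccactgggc
The octamer core lay 75 to 69 bases before the start of Nanog, beside a Sox core at 67 to 62, and 185 to 179 bases before the start of Zfp42. It occurred in 4.12% of 32851 windows of this length, and the Sox core in 10.7%. The Klf core, in 28.1% of windows, matched at 2 places before Zfp42, at 1 before Nr0b1, at 1 in the other Nanog entry, and at 1 in each of both Esrrb entries. One Esrrb entry also held a Stat site (7.02% of windows), none held the half-site (4.08%), and the window of Tfcp2l1 held no match. A match is a string of letters and not a measured binding site.

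Cells were selected as barcodes with at least 18000 UMIs and at least 10 UMIs of Pou5f1, the gene of Oct4, after removal of cells with over 10% mitochondrial UMIs and of likely doublets. This kept 22336 cells at time 1 (94.9% of the filtered cells) and 24741 at time 2 (96.7%), with medians of 44847.5 and 50758 UMIs. Both libraries hold all 12 pluripotency markers at 5 CPM (counts of a gene scaled to equal library totals in the usual way) or more, and 146 of the selected barcodes occur in both. Of the markers of other cell types, the 9 fibroblast genes summed to 62.6 CPM at time 1 and 69.4 at time 2 in the selected cells, and the 5 primed epiblast genes to 385.6 and 202.8. Free RNA, read from barcodes with 1000 to 2000 UMIs, carried 117.7 CPM of Nanog at time 1 and 66.9 at time 2. At time 1 it held more than the selected cells of 5 other genes: Esrrb (41.1 against 25.5 CPM), Tfcp2l1 (44.9 against 23.3), Tbx3 (29.2 against 17.8), Nr0b1 (21.4 against 18.7) and Prdm14 (4.01 against 3.17). Zfp42 stood at 43.6 against 46.7 CPM. At time 2, read from 4786 barcodes where time 1 had 82562, it held more of Tfcp2l1 (75.1 against 60.6 CPM). It held less of Nanog, Zfp42 (68.6 against 114.9), Nr0b1 (31.4 against 48.5) and Tbx3 (37.5 against 43.5). No direction is given for Esrrb, whose values were close (40.8 against 42.9 CPM, on 299 UMIs). None is given for Prdm14 (3.28 against 4.50) either, which rests on only 24 UMIs. The part of free RNA in the levels of single cells was not tested.

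To compare cells of unequal depth, every selected cell was thinned to 18000 UMIs. Nanog was then detected in 77.5% of time 1 cells (95% exact Clopper-Pearson interval 76.9 to 78.0) and in 74.6% of time 2 cells (74.1 to 75.1). Zfp42 was detected in 49.7% (49.0 to 50.3) and 76.5% (76.0 to 77.1). At this depth only Nanog was clearly found in most cells at time 1, as the interval of Zfp42 reached 50.3%. Nanog, Zfp42 and Tfcp2l1 were found in most cells at time 2. Tfcp2l1 was detected in 29.6% (29.0 to 30.2) at time 1 and 55.2% (54.6 to 55.9) at time 2. Esrrb was detected in 32.6% (32.03 to 33.3) and 48.5% (47.9 to 49.2). Nr0b1 was detected in 20.4% (19.9 to 20.9) and 44.0% (43.4 to 44.7). Each of these 3 shares was higher at time 2 by 15.9 to 25.6 percentage points. Tbx3 was detected in 18.05% (17.5 to 18.6) at time 1 and 34.8% (34.2 to 35.4) at time 2. Prdm14 was found in 5.06% (4.78 to 5.36) and 7.16% (6.84 to 7.49), so that most cells gave no UMI of it at this depth in either library. With all UMIs counted, shares ran from 11.6% (Prdm14) to 92.5% (Nanog) at time 1 and from 19.4% to 92.0% at time 2. Zfp42 (72.1%), Esrrb (54.2%) and Tfcp2l1 (51.2%) were then also in most cells at time 1, and all but Prdm14 were at time 2. Which genes are found in most cells thus depends on the depth.

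Fibroblast-like cells, which should lack these genes, give the background for such shares. Over all of them (612 cells at time 1 and 686 at time 2), Nanog was detected in 51.8% and 34.0%, and Zfp42 in 29.2% and 33.1%. Esrrb was detected in 18.5% and 19.4%, Tfcp2l1 in 18.5% and 23.5%, Nr0b1 in 16.99% and 19.97%, and Prdm14 in 2.29% and 2.77%. These 6 shares lay below those of the selected cells of the same library, for Nr0b1 at time 1 by little. Many of these barcodes held Pou5f1 UMIs as well, and a split at 10 of them was added after seeing the data. In those with under 10 Pou5f1 UMIs (242 cells at time 1 and 358 at time 2, medians of 43025.5 and 42989 UMIs), Nanog was detected in 24.8% at time 1 and 8.38% at time 2. Zfp42 was detected in 9.504% and 5.31% of them, Esrrb in 7.44% and 4.75%, Tfcp2l1 in 7.44% and 9.78%, and Nr0b1 in 5.79% and 4.19%. All 5 shares lay below those of the selected cells of the same library. Tbx3 was the exception at time 1, at 23.5% over all fibroblast-like cells and 29.8% (24.1 to 35.9) in those with under 10 Pou5f1 UMIs. At time 2 these shares were 32.1% and 26.3% (21.8 to 31.1), below the 34.8% of the selected cells. Its time 1 level was higher where Pou5f1 was low (24.0 CPM) than where it was not (16.4 CPM), unlike that of the other 6 genes. At time 2 it was lower there (23.0 against 35.4 CPM), like the other 6, but still near its time 1 value. These cells therefore give no background for Tbx3. Primed epiblast-like cells of time 1, described below by their leading gene Fgf8, with 10 or more Pou5f1 UMIs had a Tbx3 UMI in 4.93% at the same depth, against 18.05% of the selected cells.

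The spread between cells was wider than for most genes. Dispersion, the variance of UMIs beyond counting noise divided by the squared mean, was above the median of genes with a mean of at least 0.1 UMIs for all 7 genes in both libraries (0.170 over 8895 genes at time 1, 0.165 over 8461 at time 2). By definition 50% of genes lie above that median. Tbx3, the most dispersed, reached 4.69 at time 1 (percentile 98.97) and 2.2001 at time 2 (percentile 97.0). The 10% of cells richest in Tbx3 held 73.9% of its thinned UMIs at time 1 and 56.2% at time 2. Nr0b1 reached 3.21 and 1.08, at percentiles 98.4 and 93.1. Tfcp2l1 had 1.01 and 0.66, and Esrrb 0.66 and 0.35. Nanog, with 0.52 and 0.65, and Zfp42, with 0.52 and 0.36, were the least dispersed at time 1, at percentiles 85.2 and 85.1. Prdm14 gave 3.41 and 1.13 from a mean under 0.1 UMIs. Dispersion was lower at time 2 for 6 of the 7 genes, Nanog being the exception. The means of these 6 were higher at time 2, and genes of higher mean had lower dispersion. The median of genes of similar mean was 0.196 for Tbx3 at time 1 and 0.129 at time 2. Among genes of similar mean, Tbx3 lay at percentiles 98.9 and 98.3, Nr0b1 at 98.2 and 96.3, and Tfcp2l1 at 94.5 and 94.3. Zfp42 lay at 92.0 and 90.6, Esrrb at 91.5 and 86.4, and Nanog at 93.9 and 95.7.

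Zeros were in excess of a Poisson law of the same mean. For Nanog 22.5% of time 1 cells had no UMI where the mean of 2.13 gives 11.8%, and 25.4% of time 2 cells where it gives 13.7%. At the other end 11.96% and 10.8% of cells had 5 or more Nanog UMIs, up to 32 and 24 in a single cell. For Tbx3 the zeros were 82.0% against 73.5% at time 1 and 65.2% against 47.3% at time 2. The most frequent number of UMIs was 0 for 6 of the genes in both libraries and 1 for Nanog.

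**Figure D1:**
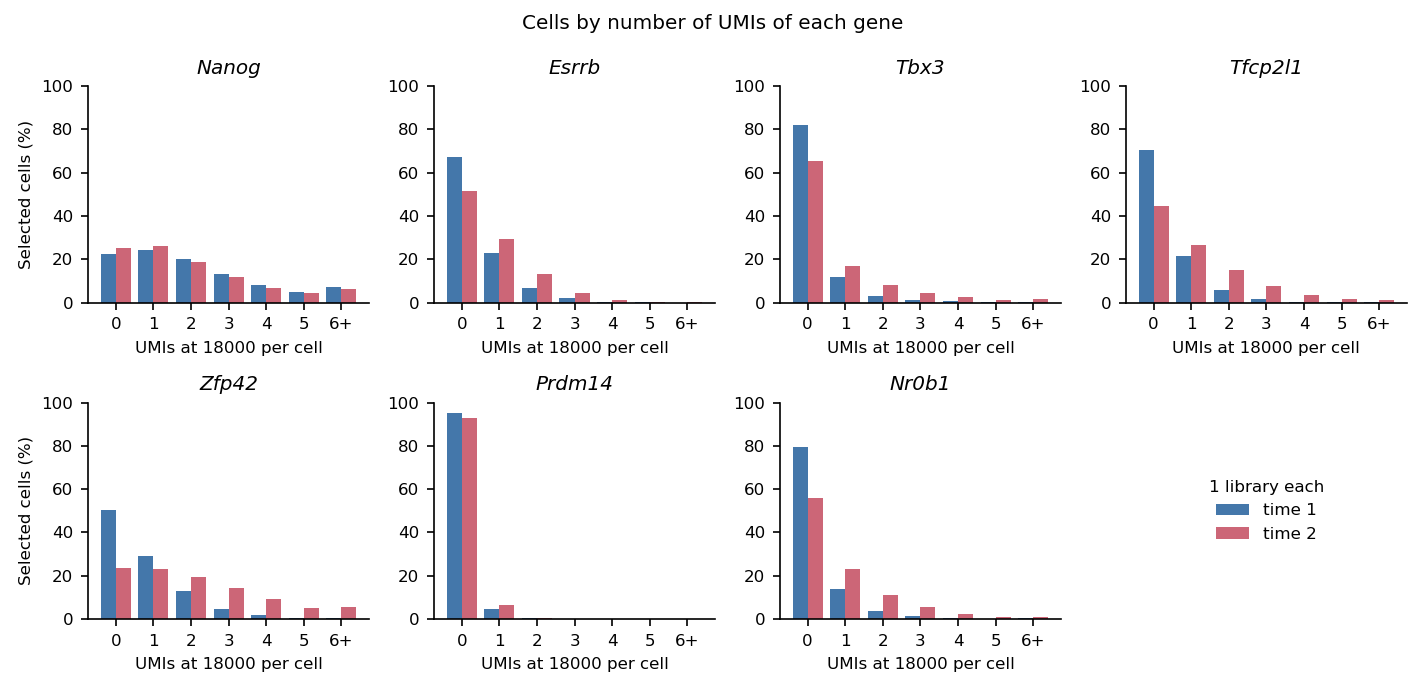
Share of selected cells (vertical axis, percent) by the number of UMIs of each gene after thinning to 18000 UMIs per cell (horizontal axis), with time 1 in blue and time 2 in red, 1 library each. The bar at 0 is lower at time 2 for Zfp42 (23.5% against 50.3%) and slightly higher for Nanog (25.4% against 22.5%).

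With passage, 5 of the 7 genes came to at least 1.5-fold higher levels, which 5.86% of the 7412 genes counted did (those at 10 CPM or more in either library), and 0 of the 7 to 1.5-fold lower levels, as did 9.78%. Summed over selected cells, the time 1 level of Zfp42 was 46.7 CPM (95% exact Poisson interval 46.3 to 47.1) and the time 2 level 114.9 CPM (114.4 to 115.5). Tfcp2l1, a target of LIF and Stat3, stood at 23.3 and 60.6 CPM. Nr0b1 stood at 18.7 and 48.5 CPM. The log2 ratios of these 3, computed from CPM plus a pseudocount of 1, were 1.28 (1.27 to 1.29), 1.34 (1.32 to 1.36) and 1.33 (1.31 to 1.35). Tbx3 stood at 17.8 and 43.5 CPM, with a ratio of 1.24 (1.22 to 1.26) on that scale. Esrrb stood at 25.5 and 42.9 CPM, with a smaller ratio of 0.73 (0.71 to 0.75). Nanog and Prdm14 stayed within 1.5-fold. For Nanog the levels were 117.5 and 109.4 CPM and the log2 ratio -0.10 (-0.11 to -0.09). For Prdm14 they were 3.17 and 4.50 CPM and 0.40 (0.34 to 0.46), below the 10 CPM at which a gene was counted.

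The median log2 ratio of the 7 genes was 1.24, against -0.01 over all genes counted. At 2-fold, which 1.08% of genes passed upward and 2.86% downward, 4 of the 7 passed upward and 0 downward. Scaling by edgeR's TMM factors in place of totals moved the log2 ratios up by 0.12 before the pseudocount, and by less for genes of low level, and the direction for Nanog then flipped to 0.02, so no direction is given to it. The median of all genes counted moved with it, from -0.01 to 0.10, and Nanog lay below that median under both scalings. TMM left the other 6 higher, with Esrrb at 0.84 and Tfcp2l1 at 1.46.

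For the 5 genes with higher levels, more cells had a UMI and positive cells held more of them. At such low counts both values rise with the mean alone. They therefore do not tell more expressing cells from more transcript per cell. The mean number of thinned UMIs in cells with at least 1 was 1.62 times higher for Zfp42 at time 2 (2.68 against 1.66), and 1.42 times for Tfcp2l1. For Tbx3, Nr0b1 and Esrrb the ratio was 1.26, 1.21 and 1.13. Nanog and Prdm14 had ratios of 0.97 and 0.96. Within 3 classes of cells by depth, from the shallowest to the deepest, the log2 ratio of Tfcp2l1 was 1.33, 1.45 and 1.248, and that of Esrrb 0.74, 0.73 and 0.71. Tbx3 varied more with depth, at 0.74, 1.48 and 1.09.

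Cells of both libraries were clustered on autosomal genes other than these 7, and the change was read again inside clusters. In the Jam2-led cluster (1218 selected cells at time 1, 2037 at time 2), Nr0b1 differed by 0.05 on the log2 scale, Zfp42 by 0.12, Esrrb by 0.35, Tfcp2l1 by 0.44 and Tbx3 by 0.45. In the Nanos3-led cluster, which also expresses Dppa3 (3645 and 5609 cells), Tfcp2l1 differed by 0.95, Prdm14 by 0.94, Zfp42 by 0.81 and Tbx3 by 0.45, whereas Esrrb, Nanog and Nr0b1 differed by 0.11, 0.11 and 0.15. Inside both clusters the values of the 5 genes past 1.5-fold over all cells were smaller than over all cells. The Rhox9-led cluster (4576 and 538 cells) differed in this for Tbx3, with 1.56 against 1.24 over all cells, and not for Tfcp2l1 (0.83), Esrrb (0.35), Zfp42 (0.35) or Nr0b1 (0.13). In the primed epiblast-like Fgf8-led cluster (5112 and 345 cells), 6 of the 7 genes differed by less than 0.30 either way, and Nanog by -0.54 (-0.63 to -0.45), with 91.0 and 62.4 CPM. That cluster was mostly of time 1 and the Gm46332-led cluster mostly of time 2 (99 and 11333 selected cells), and a cluster that is nearly all of 1 library may be that library and not a type. In the pluripotent stem cell-like clusters together (Jam2-led, Nanos3-led, Gm46332-led and Spry2-led), the log2 ratios were 0.52 for Esrrb, 0.70 for Tbx3, 0.86 for Nr0b1, 1.09 for Zfp42 and 1.16 for Tfcp2l1. There 4 of the 7 genes were at least 1.5-fold higher, as were 6.28% of the 7294 genes counted. Nanog differed there by -0.18 and Prdm14 by 0.26. The Spry2-led cluster holds 5857 filtered cells at time 1 and 32 at time 2. It is shallow, with a median of 28489 UMIs, where those of the other pluripotent stem cell-like clusters ran from 46385 to 58248. Without the Spry2-led cluster 4962 of the 10615 selected time 1 cells of this group remained. Then only Tfcp2l1 and Zfp42 of the 7 were at least 1.5-fold higher, at 0.80 each, beside 3.86% of genes. The part of depth in this was not tested. The others then stood at 0.50 for Nr0b1, 0.27 for Tbx3, 0.19 for Esrrb, -0.03 (-0.11 to 0.05) for Prdm14 and -0.34 (-0.36 to -0.33) for Nanog.

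**Figure D2:**
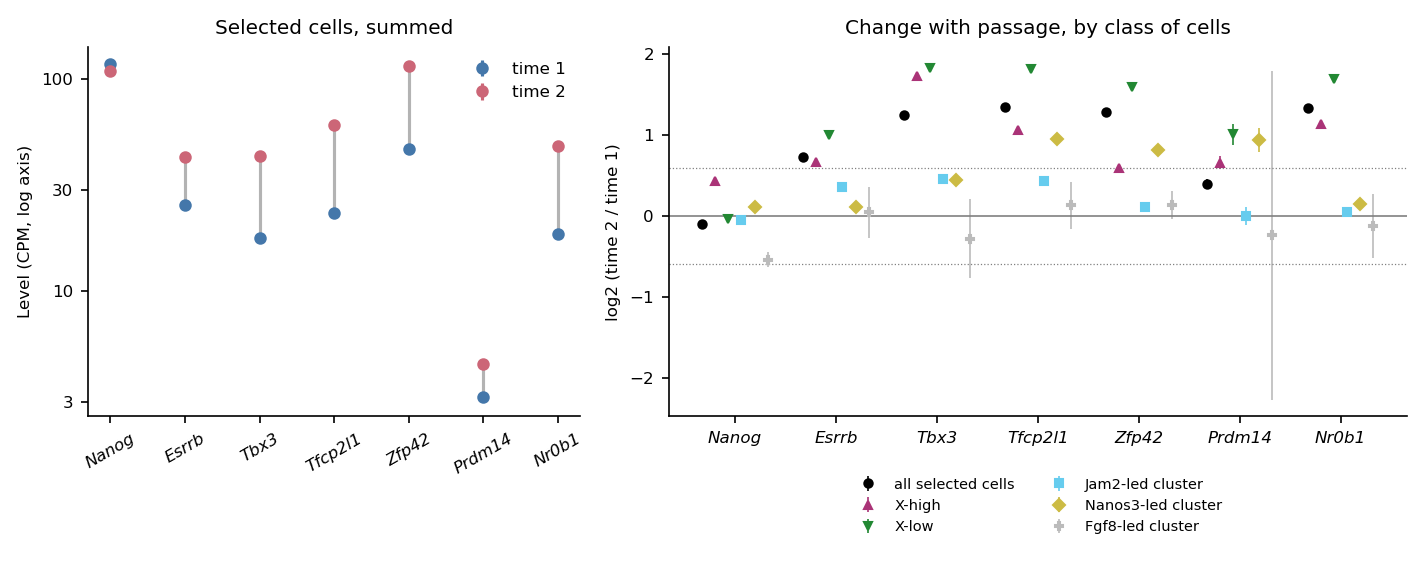
Left, level of each gene in summed selected cells (CPM, log axis) at time 1 (blue) and time 2 (red), with exact Poisson 95% intervals smaller than most symbols. Right, log2 ratio of time 2 to time 1 in all selected cells and in classes or clusters of cells, with 95% counting intervals and dotted lines at 1.5-fold. Zfp42, Tfcp2l1, Tbx3 and Nr0b1 are above 1 in all selected cells, while within the Jam2-led cluster no gene is above 0.45 and the wide bar of Prdm14 in the Fgf8-led cluster rests on a few UMIs.

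Part of the other naive genes were also higher. Of 18 further naive genes, 7 were at least 1.5-fold higher, where 5.86% of all genes counted were, and 0 were at least 1.5-fold lower (9.78%). The median log2 ratio was 0.56, and 3 genes were below 0, among them Dppa3 (225.5 and 163.1 CPM). The 7 were Nr5a2, a nuclear receptor that acts on Oct4 (5.98 and 24.2 CPM), the Krüppel-like factors Klf4 (52.1 and 108.2 CPM) and Klf5 (110.4 and 183.4 CPM), Tet2, a DNA demethylase (13.4 and 28.0 CPM), the imprint regulator Zfp57, the LIF receptor Lifr and Stat3. Of 12 primed genes 10 were counted, and 4 were at least 1.5-fold lower, namely Fgf8 (63.6 and 18.8 CPM), Fgf5 (27.3 and 8.88 CPM), Pou3f1 and Otx2, and 1 was higher, Tcf15, with a list median of -0.51, beside the same shares of 9.78% lower and 5.86% higher over all genes. Of 10 regulators known to act on these genes 9 were counted, and 2 were higher (Etv4 and Tle4) and 2 lower (Dusp6, a phosphatase induced by Erk signalling, and Sp5, a Wnt target), with a median of 0.13 and the same shares over all genes.

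The 7 genes occurred together more often than independent detection gives. All 21 pairs had a ratio of observed to expected co-detection above 1 in both libraries. Over 7989 other genes found in at least 10% of cells, the share with a ratio above 1 in both libraries was 41.3% with Nanog, 44.6% with Esrrb, 41.7% with Tbx3, 46.2% with Tfcp2l1, 42.1% with Zfp42, 37.6% with Prdm14 and 36.2% with Nr0b1. The median ratio over the pairs was 1.27 at time 1 and 1.15 at time 2. This ratio cannot exceed 1 divided by the larger share, so its size and order depend on the shares of cells. The median correlation over the pairs, described below, was 0.15 at time 1 and 0.17 at time 2. Tbx3 and Prdm14 gave the highest at both times, 1.965 (1.80% of cells held both against 0.914% expected) and 1.41 (3.51% against 2.49%). Tbx3 and Nr0b1 followed with 1.75 and 1.32. Nanog and Zfp42, the pair with the highest shares of cells, gave the lowest, 1.03 at both times.

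Cells with none and cells with nearly all of the 7 were both more frequent than independence gives. No gene of the 7 was found in 6.998% of time 1 cells (6.67 to 7.34), where the 7 shares give 3.33%, and in 3.92% of time 2 cells (3.68 to 4.17), where they give 0.465%. At least 1 UMI of all 7 was found in 57 cells (0.255%) at time 1, against 0.00693% under independence, and in 213 cells (0.861%) at time 2, against 0.168%. The most common number was 2 of the 7 at time 1 (26.1% of cells) and 4 at time 2 (22.9%). Cells with 5 or more Nanog UMIs had a UMI of Tbx3 in 36.1% at time 1, and cells with 0 Nanog UMIs in 11.5%. At time 2 those shares were 61.2% and 23.6%. For Esrrb they were 47.1% and 25.4% at time 1, and for Zfp42 62.6% and 43.8%.

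**Figure D3:**
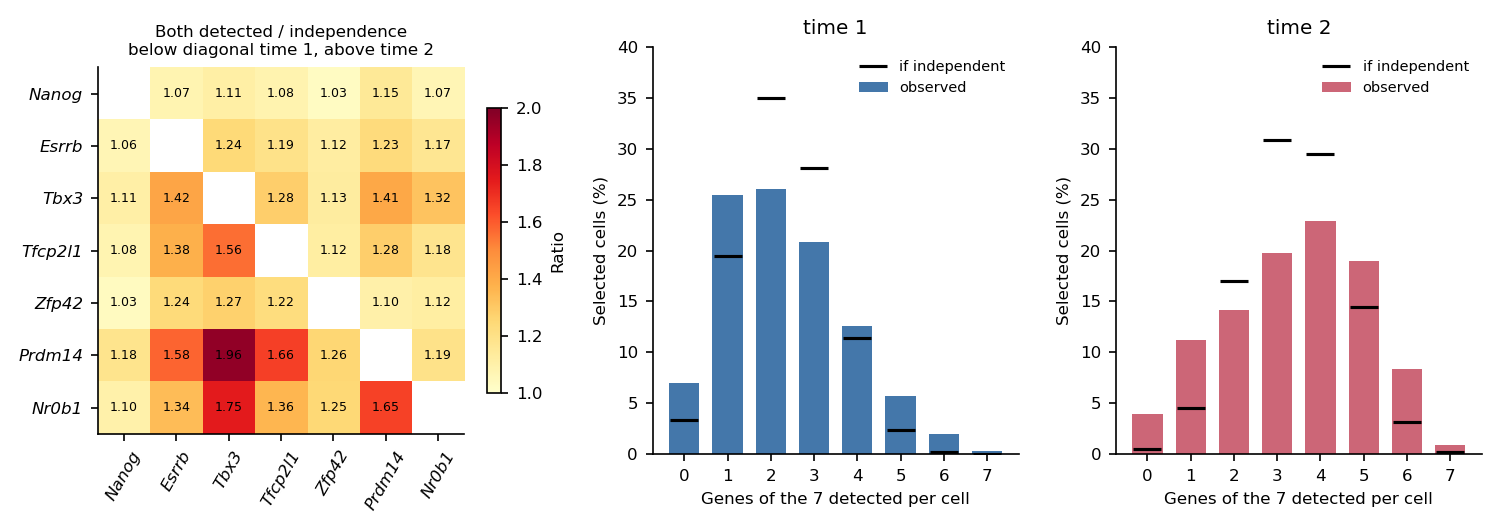
Left, ratio of the share of cells with a UMI of both genes to the product of their shares, below the diagonal at time 1 and above it at time 2. Middle and right, share of selected cells (percent) by how many of the 7 genes had a UMI at 18000 UMIs per cell (bars), with the value under independence (black marks). Every ratio is above 1, and the bars at 0 and at 5 to 7 genes rise above the marks in both libraries.

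Correlations of log UMIs across cells were weak. The median Pearson r over the 21 pairs was 0.15 at time 1 and 0.17 at time 2, with the largest values for Tbx3 with Tfcp2l1 (0.24 at time 1) and Nanog with Tbx3 (0.28 at time 2). All points of a library share its depth and its mixture of lines, and r is given as a description. The median r of each of the 7 with all 7989 genes lay within 0.01 of 0, and r with the depth of the cell before thinning lay between -0.04 and 0.09. Within clusters the median over pairs was 0.06 in both libraries, and Tbx3 with Tfcp2l1 kept 0.13 and 0.18. Between 22.7% (Nanog, time 1) and 53.8% (Esrrb, time 1) of a gene's variance beyond counting noise lay between clusters.

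The genes whose pattern across cells was most like a member's were ranked by the smaller r of both libraries among those 7989 genes. For Tbx3 they were Jam2 (r = 0.40 at both times), Calcoco2 (0.36 and 0.37) and Ooep (0.32 and 0.36). Calcoco2 also came first for Nanog (0.32 and 0.34), before Eif2s2 and Mylpf, and for Prdm14 (0.20 and 0.15). Mylpf came first for Zfp42 (0.31 and 0.37), before Klf2 and Fbxo15, and for Tfcp2l1 (0.29 and 0.34), before Mybl2 and Ckb. Esrrb had Mybl2 (0.29 and 0.28), Tdh and Mylpf, and Nr0b1 had Ooep first (0.28 at both times). Among the lists, Klf2 and Zfp42 reached 0.43 at time 2, Klf4 and Tbx3 0.31 and 0.44, and Zfp57 and Tbx3 0.26 and 0.37. Dppa3 and Tbx3 went the opposite way (-0.05 and -0.20), as did Zfp42 with Pou3f1 (-0.26 and -0.32), Fgf8 (-0.25 and -0.31) and Dnmt3b (-0.22 and -0.29).

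Across the 15 clusters with at least 50 cells in a library, each of the 7 genes was highest in a pluripotent stem cell-like cluster in both libraries, as were 16.7% of 7406 other genes. Clusters are called by their leading gene, and by a cell type where fixed markers allowed it. Of the pluripotent stem cell-like clusters, only the Gm46332-led had a pluripotency marker among its 20 leading genes. All 12 such markers reached 5 CPM in these clusters, but also in every other cluster except the mesendoderm-like one, where 11 did. These markers therefore do not set the pluripotent stem cell-like clusters apart, and the name is loose. The Jam2-led cluster ranked first for 6 of the 7 genes in both libraries. There Nanog stood at 275.5 CPM (271.9 to 279.2) at time 1 and 267.0 (264.1 to 269.8) at time 2. Tbx3 stood at 118.8 and 162.7 CPM, where the next clusters had 36.8 (Gm46332-led, time 1) and 72.6 (Srgn-led, time 2). Prdm14 stood at 13.4 CPM at both times, where the next cluster had 4.87 (Rhox9-led, time 1) and 5.62 (Nanos3-led, time 2). Zfp42 was the exception and peaked in the Gm46332-led cluster, at 99.4 CPM (91.5 to 107.9) and 147.7 (146.8 to 148.6). At time 1 its interval reached that of the Jam2-led cluster (88.8 to 93.0).

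Against the Jam2-led cluster, the primed epiblast-like cluster was lower by a smaller factor for Nanog than for most of the other genes. At time 1 the Fgf8-led cluster, with Fgf5 and Pou3f1 among its leading genes, had 91.3 CPM of Nanog but 5.05 of Esrrb, 2.82 of Tbx3, 5.74 of Tfcp2l1, 15.9 of Zfp42, 0.325 of Prdm14 and 3.63 of Nr0b1. Against the Jam2-led cluster of that library these are levels 3-fold lower for Nanog and 10-fold or more lower for Esrrb, Tbx3, Tfcp2l1, Prdm14 and Nr0b1. At time 2 the cluster had 62.0 CPM of Nanog, against 267.0 in the Jam2-led cluster and 66.9 in free RNA, and the other 6 genes again stood below their Jam2-led levels, with Tbx3 at 2.15 and Esrrb at 5.08. The Id1-led cluster, which has no cell type name here and held 3877 cells at time 2, was low as well, with 57.3 CPM of Nanog, 9.86 of Esrrb, 5.72 of Tbx3 and 12.3 of Nr0b1. The unnamed Krt8-led cluster also had low levels at time 1, with 55.8 CPM of Nanog against 91.3 in the Fgf8-led. It had 5.31 CPM of Esrrb, 2.82 of Tbx3, 8.38 of Tfcp2l1 and 2.58 of Nr0b1, against 5.05, 2.82, 5.74 and 3.63. The mesendoderm-like cluster of time 1 had 73.2 of Nanog, 5.20 of Esrrb and 3.16 of Nr0b1, with less Zfp42 (5.20 against 15.9) and more Tbx3 (6.44 against 2.82) than the Fgf8-led. The Zfp42 level of the Id1-led cluster (37.5 CPM) was above that of the Fgf8-led cluster (17.6). The Rhox9-led cluster (4668 cells at time 1) had no cell type name either. There Nanog stood at 130.5 CPM against 107.1 in the Nanos3-led cluster, and Nr0b1 at 13.8 against 26.2.

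**Figure D4:**
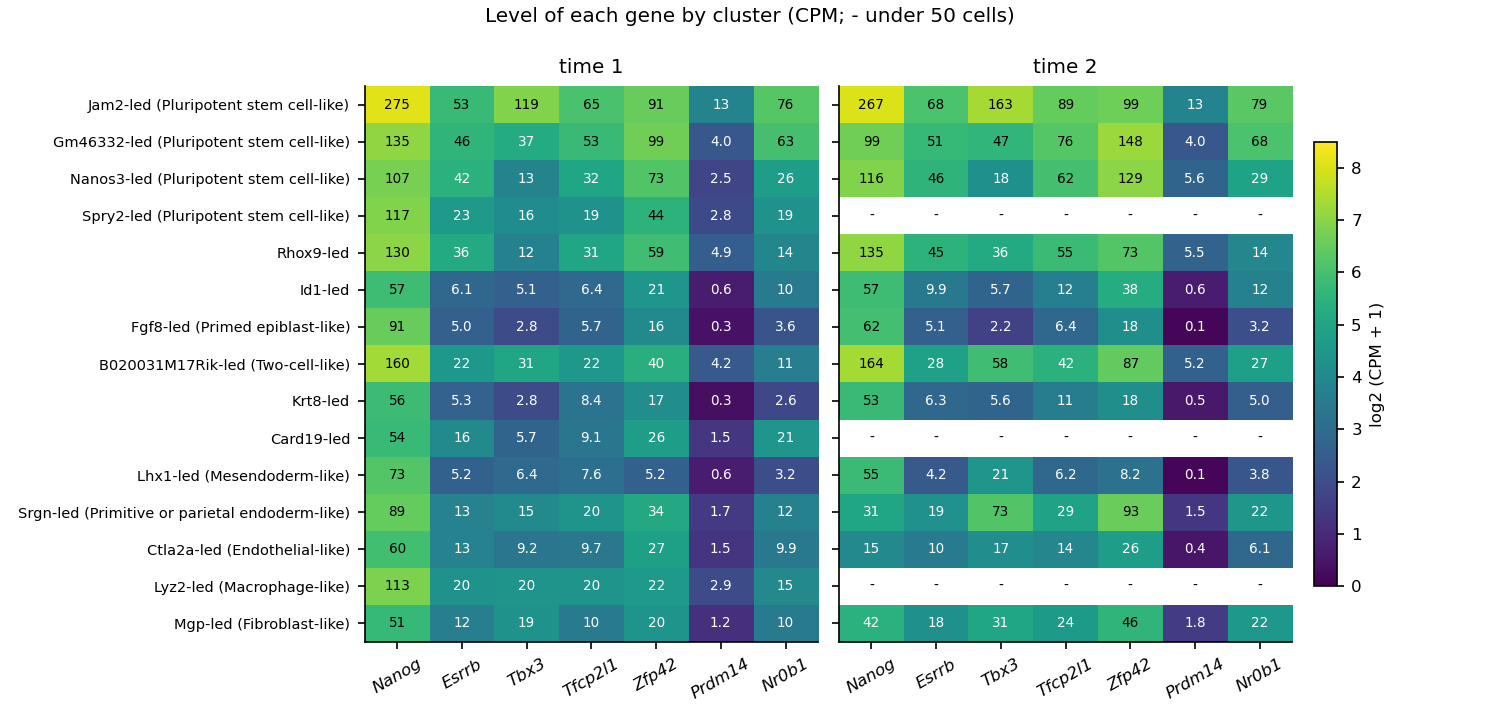
Level of each gene (CPM, printed, with colour as log2 of CPM plus 1) by cluster in time 1 and time 2, with all filtered cells used and a dash where a library has under 50 cells of a cluster. The Jam2-led row is highest for every gene except Zfp42, and the Fgf8-led row is below it for all 7 genes, with 91.3 against 275.5 CPM of Nanog and 2.82 against 118.8 of Tbx3 at time 1.

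In fibroblast-like cells most of the 7 genes were lower where Pou5f1 was low. These cells, the class of the feeders, had 51.0 CPM of Nanog at time 1 and 42.1 at time 2. Split at 10 Pou5f1 UMIs, Nanog stood at 77.1 CPM above and 12.4 below at time 1, and at 63.8 and 4.20 at time 2. Depth differed as well, with a median of 37575.5 UMIs above and 43025.5 below at time 1. At time 2 it was 88797 above and 42989 below. Below the split at time 2, Esrrb stood at 3.10 CPM, Tfcp2l1 at 3.54, Zfp42 at 3.32, Nr0b1 at 1.55 and Prdm14 at 0.166. These are the levels to set beside those of the other differentiated clusters, where the part of free RNA was not tested.

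Some levels in other differentiated clusters stood above those of the fibroblast-like cells with under 10 Pou5f1 UMIs. For Tbx3 these cells give no background, and several of its levels below were under theirs. Fibroblast-like cells with under 10 Pou5f1 UMIs had 24.0 CPM of Tbx3 at time 1 and 23.0 at time 2. The primitive or parietal endoderm-like cluster, led by Srgn and with Dab2, Cubn and Amn among its leading genes, had 15.3 CPM of Tbx3 at time 1 (69 cells) and 72.6 (67.1 to 78.3) at time 2 (115 cells). Its 31 cells with under 10 Pou5f1 UMIs at time 2 still had 64.7 CPM of Tbx3 and 45.0 of Zfp42, with 5.63 of Nanog and 2.81 of Esrrb. The mesendoderm-like cluster had 6.44 CPM of Tbx3 at time 1 and 20.9 at time 2 (32.2 in its time 2 cells with under 10 Pou5f1 UMIs), and the endothelial-like cluster 9.21 and 16.9. Tbx3 is known to act in extraembryonic endoderm as well as in the naive network. The mesendoderm-like cluster (Gsc, Mixl1, Eomes) had 73.2 CPM of Nanog at time 1 and 55.0 at time 2, and 5.20 and 8.15 of Zfp42, the lowest Zfp42 of any cluster in either library. In its cells with under 10 Pou5f1 UMIs (67 and 68 cells) Nanog stood at 42.9 and 24.4 CPM. Nanog is known to be expressed in the posterior epiblast at gastrulation. The endothelial-like cluster at time 2 had the lowest Nanog, 15.0 CPM (12.6 to 17.7). Its cells with under 10 Pou5f1 UMIs (24 and 65) had 15.0 (8.22 to 25.2) and 6.53 (3.87 to 10.3) CPM of Zfp42. Such fibroblast-like cells had 4.53 (3.46 to 5.84) and 3.32 (2.53 to 4.27), so the intervals overlap at time 2. Pou5f1 was higher in these endothelial-like cells as well, at 136.3 and 61.3 CPM against 72.8 and 33.5. In the 2-cell-like cluster, marked by Tcstv1, Nanog stood at 159.6 CPM at time 1 and 163.6 at time 2, and Tbx3 at 31.2 and 57.9. The macrophage-like cluster of time 1 (67 cells, led by Lyz2) also had 113.1 CPM of Nanog. Its 53 cells with 10 or more Pou5f1 UMIs had 132.4. A high level in a cluster is thus not by itself expression by its named cell type, and the source of these levels was not tested.

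The dosage of the X chromosome differs between XX, XO and XY lines, so the genes were compared between cells with a high and a low X output. Both classes hold only cells with no Y-linked UMI, and cells with any were left out. X-high cells had an X to autosome ratio of at least 1.2 times the median of cells with 2 or more Y-linked UMIs. X-low cells had a lower ratio, and the 7 genes were left out of it. These classes were read from the data and are not the lines. They were made from X-linked genes, so the median difference of X-linked genes given below is raised by the call itself. X-high cells made up 36.0% of selected cells at time 1 and 13.5% at time 2. At time 1 all 7 genes were at least 1.5-fold higher in X-high cells, Prdm14 among them although below 10 CPM. Of 7525 genes counted 6.80% were, and 45.2% were higher by any amount. Tbx3 stood at 32.8 CPM in X-high and 8.45 in X-low cells, a difference of 1.84 (1.79 to 1.89) on the log2 scale. Prdm14 stood at 6.04 and 1.28 CPM, a log2 ratio of 1.63 (1.49 to 1.76). Nanog (0.69), Esrrb (0.79), Tfcp2l1 (1.06) and Zfp42 (0.61) followed, and the X-linked Nr0b1 differed by 0.83, where the median X-linked gene differed by 0.61.

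At time 2 the order changed. Tbx3 (1.73), Prdm14 (1.28) and Nanog (1.17) stayed past 1.5-fold, which 7.90% of genes passed (52.8% were higher by any amount), and Esrrb (0.46), Tfcp2l1 (0.31) and Nr0b1 (0.28, where the median X-linked gene differed by 0.74) did not. Zfp42 turned to -0.39, with 91.7 CPM in X-high and 120.6 in X-low cells. Chromosome gains were unevenly spread over the classes. Among the 13781 time 2 cells with a gain of chromosome 1, 11770 were X-low, and among the 10960 without it 6127 were. In time 2 cells with no called gain, all 7 were higher in X-high cells, Tbx3 by 2.51, Prdm14 by 1.95, Nanog by 1.38, Tfcp2l1 by 1.28, Esrrb by 1.10, Nr0b1 by 1.00 and Zfp42 by 0.29. Of the genes counted in those cells, 47.4% were higher and 8.53% at least 1.5-fold higher. At time 1 the cells with no called gain gave a log2 ratio of at least 0.64, that of Nanog, for all 7 genes, where 45.8% of genes were higher and 7.17% at least 1.5-fold higher. The X classes were spread unevenly over the clusters. At time 1 the Rhox9-led cluster held 3873 X-high and 332 X-low cells, the Fgf8-led 179 and 3455, the Nanos3-led 220 and 2503 and the Spry2-led 2309 and 1837. Within the Nanos3-led cluster at time 1, X-high and X-low cells differed by 0.07 for Tbx3, by -0.07 for Esrrb and by -0.64 for Nr0b1 (median X-linked gene 0.65), while Prdm14 differed by 1.00 (0.60 to 1.41). For Tbx3 the difference was -0.18 (-0.37 to 0.02) in the Rhox9-led cluster, 0.54 in the Spry2-led and 0.47 (0.01 to 0.94) in the Fgf8-led. At time 2 it was 0.10 (-0.02 to 0.22) in the Gm46332-led cluster, 0.57 in the Nanos3-led and 0.94 in the Id1-led. In all of these Tbx3 differed less than over all selected cells. Nanog differed by 0.60 in the Rhox9-led cluster, 0.29 in the Spry2-led and -0.56 in the Fgf8-led at time 1. At time 2 it differed by 0.28 in the Gm46332-led cluster, 0.29 in the Nanos3-led and 0.55 in the Id1-led.

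Cells called as having gained the chromosome of one of the genes were compared with cells that had not. A gain was called at 1.3 times the median share of the chromosome in time 1 cells. Gains of chromosome 1 were called in 0.842% of cells at time 1 and 55.7% at time 2, and of chromosome 8 in 4.77% and 47.2%. Tfcp2l1 on chromosome 1 stood at 72.1 CPM in cells with the gain and 46.1 without it at time 2, a log2 ratio of 0.63 (0.61 to 0.65), where the median gene of chromosome 1 differed by 0.41 and 93.1% of its genes were higher. At time 1 the ratio was 1.253 (1.14 to 1.37) over 188 cells with the gain (median 0.50, 94.5% higher). In those cells genes on other chromosomes differed as well, Nr0b1 by 0.995, Esrrb by 0.74, Zfp42 by 0.71, Tbx3 by 0.31 and Nanog by 0.27. Prdm14 on the same chromosome did not follow, at -0.01 (-0.48 to 0.47) at time 1 and -0.20 (-0.27 to -0.14) at time 2. In X-low cells alone it differed by 0.49 (0.38 to 0.60) at time 2, and Tfcp2l1 by 1.04.

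Zfp42 on chromosome 8 stood at 80.3 CPM with and 44.9 without the gain at time 1, a log2 ratio of 0.82 (0.78 to 0.87), where the median gene of the chromosome differed by 0.49 and 97.8% were higher. At time 2 the ratio was 0.27 (0.25 to 0.28), near the median of 0.23, with 96.5% of the genes higher. In X-low cells alone it was 1.24 (1.19 to 1.29) at time 1 and 0.16 (0.14 to 0.18) at time 2. In those time 1 cells genes on other chromosomes differed as well, Nr0b1 by 0.94, Esrrb by 0.79 and Tfcp2l1 by 0.32. Prdm14 differed there by 0.20 (-0.14 to 0.54), Tbx3 by -0.22 and Nanog by -0.32. Esrrb on chromosome 12 differed by 0.88 (0.74 to 1.03) at time 1 over 162 cells and by 0.54 (0.37 to 0.71) at time 2 over 78 cells, where the medians of its genes were 0.59 and 0.62, with 98.4% and 99.3% of them higher. In the same time 1 cells genes on other chromosomes differed as well, Tbx3 by 1.08, Prdm14 by 0.79, Tfcp2l1 by 0.72 and Zfp42 by 0.68. Nanog on chromosome 6 differed by 0.32 (0.24 to 0.41) at time 2 over 157 cells. The genes used for the call had a median of 0.57, with 98.6% of them higher, which the call itself raises. Tbx3 on chromosome 5 differed by 0.68 over 67 cells at time 1, but only 54.3% of that chromosome's genes were higher in them, so that call is uncertain. In all, 8 of 10 such comparisons were higher, that of Tbx3 among them. As the percents above show, so were nearly all other genes of these chromosomes, except for chromosome 5. Genes on other chromosomes moved as well: with the chromosome 1 gain at time 2, Zfp42 differed by 0.50, Nr0b1 by 0.52 and Nanog by -0.41, and with the chromosome 8 gain Tbx3 differed by -1.03. In X-low cells alone these values were 0.46 for Zfp42, 0.88 for Nr0b1, 0.08 (0.06 to 0.10) for Nanog and -0.44 for Tbx3 with the chromosome 8 gain. The sign of Nanog turned, and so did that of Tbx3 with the chromosome 1 gain, from -0.26 (-0.28 to -0.24) to 1.05 (1.01 to 1.09). Gains share cells with the clusters and X classes above, and their part in these differences was not tested.

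In cells with no called gain (20019 and 5174), the change with passage was 2.00 for Tbx3, 1.34 for Nr0b1, 1.21 for Tfcp2l1, 0.83 for Zfp42, 0.77 for Esrrb, 0.87 for Prdm14 and 0.42 for Nanog. There 6 of the 7 genes were at least 1.5-fold higher, Prdm14 among them although below 10 CPM. Of the 7405 genes counted in those cells, 4.12% were. In X-low cells the same 6 were, as were 7.01% of genes, with Tfcp2l1 at 1.81, Nr0b1 at 1.69 and Zfp42 at 1.59. In X-high cells, where 6 passed as well and 4.23% of genes did, the ratio of Zfp42 was 0.59 and that of Tbx3 1.72.

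**Figure D5:**
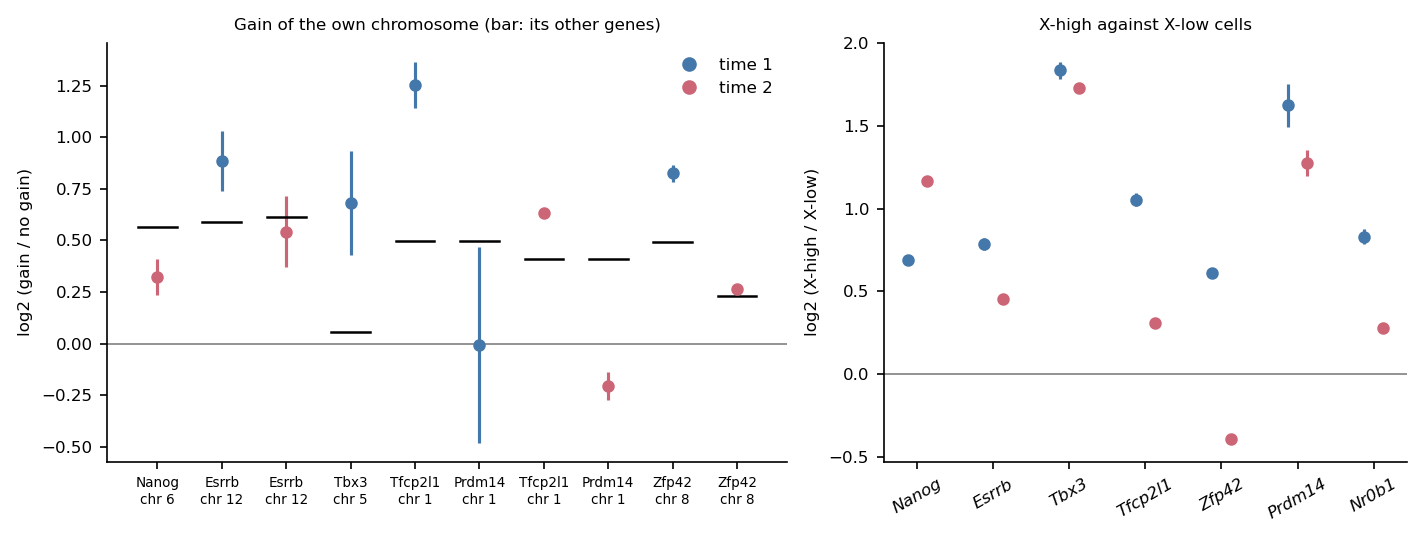
Left, log2 ratio of each autosomal gene between cells with and without a called gain of its own chromosome, by library (blue time 1, red time 2), with 95% counting intervals and a black bar at the median of the other genes of that chromosome. Right, log2 ratio between X-high and X-low cells. Prdm14 lies below the bar of chromosome 1 at both times, and Zfp42 alone is below 0 in the right panel, at time 2. The genes behind each bar were used to call the gain, which raises the bar.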

How the data were processed

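Single-cell transcriptomes of pooled mouse embryonic stem cells were measured in 2 droplet libraries (10x Genomics 3' chemistry), 1 for each time. The deposited values are UMI counts per gene and barcode, made by the authors. The file headers and the submitters' processing notes name Cell Ranger 6.1.2, and the notes also name bcl2fastq 2.20.0.422 and the builds mm10 and GRCm38. How the deposited barcodes were chosen is not given in the sources used here. The libraries hold 1735810403 and 1843588321 UMIs over 145288 and 52242 barcodes, and a share over the selected cells has an interval of about 1 percentage point.

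Cells had at least 18000 UMIs, 1000 genes and at most 10% mitochondrial UMIs. The automatic Scrublet threshold (scanpy 1.11.5) marked 0 cells, so cells scoring above the limit of the top 10% were removed. These were 9.37% of cells at time 1 and 9.60% at time 2, and the choice was made after seeing the data. Cells were thinned to 18000 UMIs for shares, dispersion and correlations. CPM values came from summed counts, with exact Poisson 95% intervals, and log2 ratios used a pseudocount of 1 CPM. A gene was counted at 10 CPM or more in either library, and called at 1.5-fold. With 1 library for each time no test was made. Clusters (2000 variable genes, 30 components, 15 neighbours, Leiden resolution 0.5) left out the 7 genes, sex-linked and mitochondrial genes. A cluster was named from marker lists by a rule set after the clusters were seen. Differences between such rebuilt clusters and the study's may come from the naming. The files hold no nearly empty barcodes, so free RNA was read from barcodes of 1000 to 2000 UMIs. Genes were named where a list gene passed 1.5-fold or was among the 3 highest or lowest correlations of its list, and as the 3 most similar genes of each member. The dispersion, co-detection and ratio steps were tested on simulated data. Alternatives included edgeR 4.0.16 TMM scaling, other limits on cells and other populations. The 7 genes and all lists were chosen with earlier results of these data known.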

Additional observations from a re-analysis of the deposited data

Results flagged for a closer look

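The values of Nanog with passage fell on either side of 0 in the classes of X output, in X-low cells by so little that no direction is given there. In X-high cells (8044 at time 1 and 3350 at time 2) the log2 ratio of time 2 to time 1 was 0.44, and in X-low cells (9253 and 17897) it was -0.04. The difference between the classes was not tested, since each time has 1 library. Over all selected cells TMM scaling took the log2 ratio of Nanog from -0.10 to 0.02, and TMM was not run within the X classes.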

How the results depend on the processing

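The count of genes at least 1.5-fold higher with passage was 5, and 4 to 6 under the other settings, except for 2 with a 50 CPM minimum and 2 in pluripotent stem cell-like clusters without the Spry2-led cluster, a population chosen after seeing the data. The first follows from its construction, as fewer genes reach 50 CPM, and for the second the cause was not tested. It stayed at 5 without the 146 shared barcodes and without the Spry2-led and Card19-led clusters, both also chosen after seeing the data. The median difference in share of cells with a UMI was 16.7 percentage points. It was 13.7 when thinned to 10000 UMIs and 21.7 when not thinned, both set by the depth compared, 18.4 with the higher UMI minimum, 18.1 with a Pou5f1 minimum of 20 and 17.7 with doublets kept, and there the cause was not tested. Comparisons higher with a gain of their own chromosome numbered 8 of 10, and 5 of 7 at a threshold of 1.4, where fewer comparisons had enough cells. In X-low cells alone, chosen after seeing the data, they numbered 7 of 7. All 7 genes stayed above the median dispersion and highest in a pluripotent stem cell-like cluster under every alternative run, and 20 or 21 of the 21 pairs stayed above independence. No paired analysis was possible because each time has 1 library. Depth limits Prdm14 most, with 3.17 and 4.50 CPM.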
